A study of Mus musculus with 12 samples.

Results

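The 10 genes described here encode ubiquitin ligases, deubiquitinases and adaptors that tune NF-kB signalling: Tnfaip3, Tnip1, Cyld, Peli1, Traf1, Traf2, Traf3, Traf6, Birc2 and Birc3. They were taken by symbol from 54532 genes listed in the count files, each symbol matched 1 identifier, and all 10 were among the 14324 genes that passed the filter on low counts. Peli1 was chosen for its succinate pattern in these same libraries, so its differences between succinate and control mice are given as a description, with no test. The other members were chosen for their role, with earlier results of these data known. The cells were CD11b+ Ly6C-high monocytes, the classical inflammatory monocytes, sorted from mouse bone marrow and cultured. There were 4 groups of 3 libraries: monocytes of mice given 300 mM succinate for 7 days and cultured for 4 h with lipopolysaccharide (LPS), monocytes of control mice cultured for 4 h with LPS, unstimulated monocytes of succinate mice, and unstimulated monocytes of control mice. The labels used here name no strain, sex or age. Nothing in them ties the replicate libraries to separate animals, so p-values measure the spread between these libraries, which may be technical.

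LPS is sensed by Toll-like receptor 4, whose adaptors recruit Traf6, a RING ligase that builds non-degradative ubiquitin chains. These chains gather the kinases that trigger destruction of the inhibitor Nfkbia and release NF-kB. Peli1 (Pellino 1) is a ligase acting on the IRAK and RIP kinases of the same route. Traf2, Birc2 (cIAP1) and Birc3 (cIAP2) act together at TNF-family receptors, Traf3 restrains the alternative NF-kB route and supports interferon induction, and Traf1 is a TRAF protein without a RING domain that pairs with Traf2. The brakes are Tnfaip3 (A20), a ubiquitin-editing enzyme, its binding partner Tnip1 (ABIN-1), and the deubiquitinase Cyld. Several of these genes are themselves NF-kB targets, which makes them a feedback loop.

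The RefSeq promoter windows, 250 bases before to 50 bases after the annotated start on GRCm38.p6, are shown for the brakes Tnfaip3 and Tnip1, which hold a kappa-B-like motif, and for Peli1 and Traf1, which do not. The motif searched was GGG, then any 3 bases, then TTCC, on both strands, and capitals mark every match.
Tnfaip3, chr10:19015361-19015660, minus strand: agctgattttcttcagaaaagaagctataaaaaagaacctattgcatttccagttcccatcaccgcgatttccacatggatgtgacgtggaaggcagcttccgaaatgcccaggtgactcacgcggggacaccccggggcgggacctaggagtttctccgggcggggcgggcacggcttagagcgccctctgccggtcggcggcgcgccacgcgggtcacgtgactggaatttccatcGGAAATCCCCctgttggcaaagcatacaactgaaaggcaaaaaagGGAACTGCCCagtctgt
Tnip1, chr11:54962891-54963190, minus strand: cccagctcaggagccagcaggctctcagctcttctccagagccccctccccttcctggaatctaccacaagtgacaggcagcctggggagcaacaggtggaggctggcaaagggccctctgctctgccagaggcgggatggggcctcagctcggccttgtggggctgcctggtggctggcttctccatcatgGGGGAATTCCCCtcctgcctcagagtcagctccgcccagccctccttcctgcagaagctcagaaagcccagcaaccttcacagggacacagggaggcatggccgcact
Peli1, chr11:21091074-21091373, plus strand: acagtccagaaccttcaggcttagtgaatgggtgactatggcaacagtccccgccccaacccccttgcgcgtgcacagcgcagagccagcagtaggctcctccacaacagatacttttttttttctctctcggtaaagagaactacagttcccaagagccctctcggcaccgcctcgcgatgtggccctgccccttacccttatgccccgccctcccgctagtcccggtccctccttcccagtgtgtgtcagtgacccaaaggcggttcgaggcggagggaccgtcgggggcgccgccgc
Traf1, chr2:34961723-34962022, minus strand: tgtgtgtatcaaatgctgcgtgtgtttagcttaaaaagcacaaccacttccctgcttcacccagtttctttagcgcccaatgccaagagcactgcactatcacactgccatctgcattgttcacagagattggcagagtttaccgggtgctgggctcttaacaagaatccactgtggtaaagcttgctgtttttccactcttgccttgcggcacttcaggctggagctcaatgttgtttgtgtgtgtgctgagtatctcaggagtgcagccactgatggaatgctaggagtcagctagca
The first Tnfaip3 window held 2 matches, both on the opposite strand to the gene. GGGGATTTCC lay 12 to 3 bases before the start, and GGGCAGTTCC lay 33 to 42 bases after it. In Tnip1, GGGGAATTCC matched on both strands in overlapping positions, beginning 58 and 56 bases before the start. The motif was also in the windows of Cyld (GGGACTTTCC), Traf2 (GGGTGTTTCC) and Traf3 (GGGGATTTCC), and in a second Tnfaip3 window at another start (GGGTTATTCC). It was thus present in 6 of the 12 windows of the members, against 5.56% of 32851 promoter windows of the same length (300 bases). Counted by gene, it was in a window of 5 of 10 members, against 6.31% of 27025 genes. No match was found in the windows of Peli1, Traf1, Traf6, Birc2 or Birc3, which says only that these letters are not in these windows. Birc2 and Birc3 lie next to each other on chromosome 9, on the same strand and 11634 bases apart with no annotated gene between them.

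Total counts ranged from 15975882 to 18306747 per library, and every member had at least 243 counts in every library. All 10 classical monocyte markers checked averaged above 1 CPM (read counts per gene put on a common depth) in every group. Among them were Ly6c2, Ccr2, Itgam and Csf1r, and the lowest was Fcgr1, at 1.98 to 5.66 CPM. All 10 neutrophil markers, and with LPS all 6 B cell markers, also averaged above 1 CPM, so this level does not tell cell types apart. The B cell marker Ighm averaged 79 to 177 CPM. Of 6 macrophage markers 4 averaged under 1 CPM in every group. Vcam1 of that list averaged 696 CPM in succinate and 735 CPM in control cells with LPS. The summed level of 10 neutrophil markers was 16000 to 18200 CPM in succinate cells with LPS and 14900 to 19800 CPM in control cells with LPS. It was 7200 to 10800 CPM in unstimulated succinate cells and 8390 to 14300 CPM in unstimulated control cells. None of these markers was at 0, and the defining marker Ly6g averaged 6.46 CPM in succinate cells with LPS, 7.72 CPM in control cells with LPS, 4.24 CPM in unstimulated succinate cells and 3.87 CPM in unstimulated control cells. This sum was higher with LPS, as were the members described next, and its part in their values was not tested. It is carried by abundant granule genes such as Ngp (4690 CPM in succinate cells with LPS and 2710 CPM without, and 5130 CPM in control cells with LPS and 3240 CPM without). Other markers of the list had lower means with LPS. Cxcr2 averaged 12.6 CPM in succinate cells with LPS and 26 CPM without, and 10.3 CPM in control cells with LPS and 26.1 CPM without. Mmp8 averaged 44.5 CPM in succinate cells with LPS and 110 CPM without, and 54.2 CPM in control cells with LPS and 147 CPM without. A set of 5 genes reported earlier to split these libraries (S100a4, Rpl24, Rpl10-ps3, Gm14303 and Rpl35a-ps2) was high in 5 libraries (mean log2 CPM 3.14 to 4.06) and low in the other 7 (0.83 to 1.44). The high ones were all unstimulated libraries with replicate numbers 2 or 3, and the control LPS library with number 3.

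With LPS, 9 of the 10 members rose in monocytes of succinate mice and the same 9 rose in monocytes of control mice. Over all tested genes, 14.1% were called higher with LPS in succinate mice and 15.3% in control mice, at an adjusted p below 0.05 in edgeR's quasi-likelihood test. The median log2 fold change of the members was 0.85 in succinate mice and 0.91 in control mice, against -0.017 and -0.004 over all genes in succinate and control mice. Peli1 is 1 of the 9, and without it the members' median was 0.64 in succinate mice and 0.68 in control mice. In each of the 9, every LPS library lay above every unstimulated library of the same mice, as it did for 19.9% of all genes in succinate mice and 22.3% in control mice. The rises spanned a wide range, with Traf1 and Tnfaip3 more than 10-fold up and Traf3 the smallest. In a bulk measurement, fewer cells of a type and less RNA per cell cannot be told apart.

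Among the brakes, Tnfaip3 stood at 922, 1140 and 927 CPM in succinate cells with LPS, against 112, 85.7 and 59.1 CPM in succinate cells without it. In control mice it stood at 1400, 1350 and 1360 CPM with LPS, against 92.4, 95.7 and 103 CPM without. No LPS library came near an unstimulated one, and the 3 control LPS libraries lay within a narrow band (SD 25.7 CPM). The rise was 11.6-fold in succinate mice (log2 fold change 3.54 ± 0.19 SE, adjusted p = 6.01e-09) and 14.1-fold in control mice (3.82 ± 0.19, adjusted p = 2.76e-09). Tnip1, which brings A20 to ubiquitin chains, stood at 533, 603 and 629 CPM in succinate cells with LPS, against 127, 131 and 123 CPM without. In control mice Tnip1 had 625, 632 and 828 CPM with LPS and 112, 146 and 151 CPM without. Its rise was 4.62-fold in succinate mice (2.21 ± 0.14, adjusted p = 3.38e-08) and 5.09-fold in control mice (2.35 ± 0.14, adjusted p = 1.61e-08). Cyld, which removes ubiquitin chains from signalling proteins, had a smaller rise than Tnfaip3. It averaged 113 ± 4.33 CPM with LPS and 72.4 ± 0.187 CPM without in succinate mice, and 107 ± 6.15 CPM with and 70.1 ± 2.88 CPM without in control mice (SD, n = 3 each). The LPS and unstimulated groups did not overlap, and both rises passed, 1.55-fold in succinate mice (adjusted p = 7.66e-05) and 1.52-fold in control mice (adjusted p = 0.000113).

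**Figure D1:**
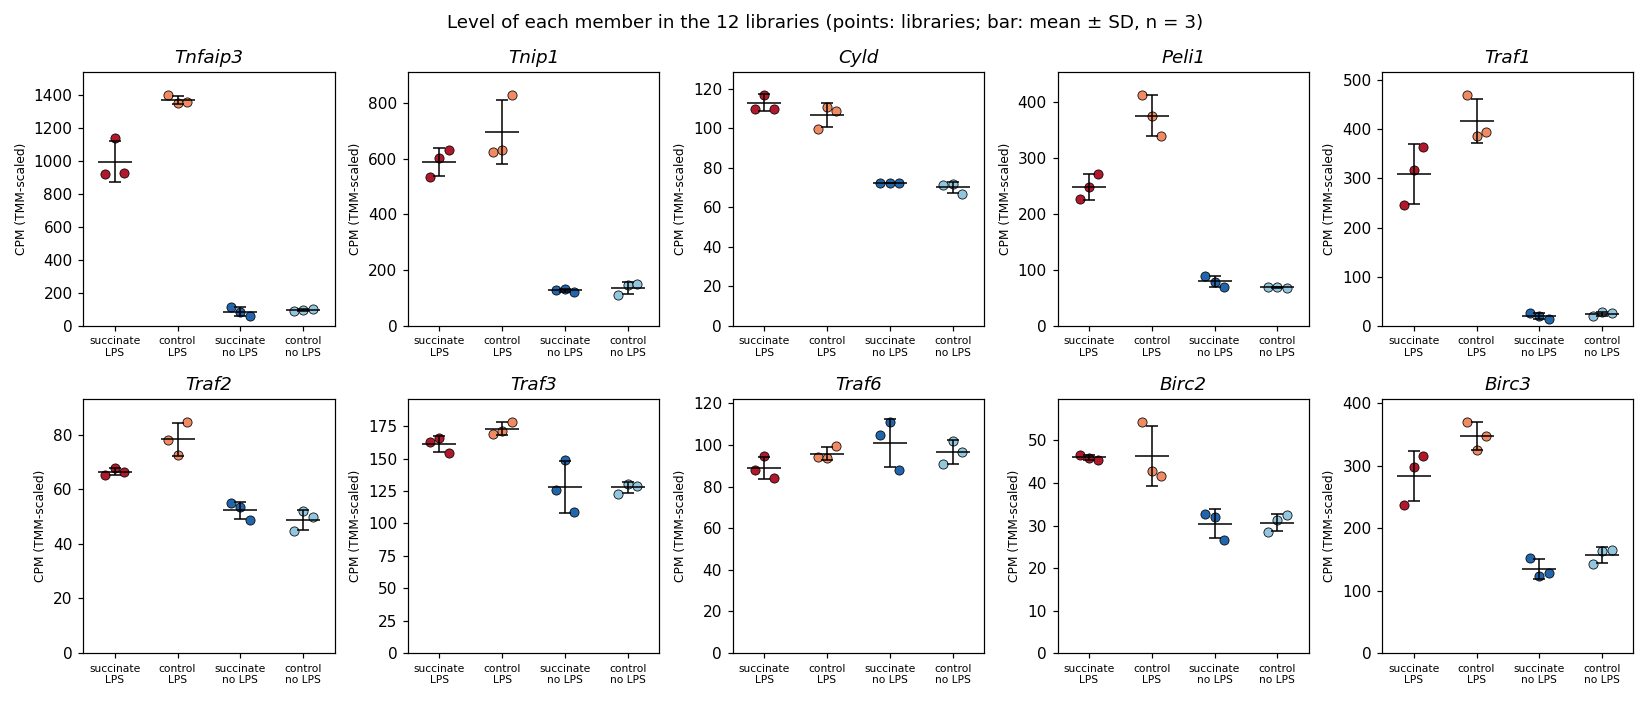
Level of each of the 10 members in CPM (linear axis from 0) in the 12 libraries, by group. Points are libraries and bars the mean ± SD of n = 3. In 9 panels every LPS library lies above every unstimulated library of the same mice, and Traf6 is the exception.

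The Pellino ligase Peli1 stood at 226, 248 and 272 CPM in succinate cells with LPS, against 89.2, 78.9 and 69.8 CPM without. In control mice it had 413, 376 and 339 CPM with LPS, against 68.8, 69.2 and 67.9 CPM without. All LPS libraries lay above all unstimulated ones. The LPS libraries of succinate and control mice did not overlap, which is part of the pattern Peli1 was chosen for. The LPS rise was 3.14-fold in succinate mice (1.65 ± 0.12, adjusted p = 9.01e-08) and 5.48-fold in control mice (2.45 ± 0.12, adjusted p = 2.33e-09). The same libraries gave the succinate pattern, so the size of each rise is not independent of the choice of Peli1. Of its relatives, Peli3 rose in succinate mice (1.67 ± 0.45, adjusted p = 0.011) on 23 to 41 counts per library with LPS and 5 to 12 without, while Peli2 was at -0.27 ± 0.17 (adjusted p = 0.258). In control mice Peli3 was at 0.56 ± 0.44 (adjusted p = 0.381) and Peli2 at -0.41 ± 0.17 (adjusted p = 0.0825).

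The TRAF proteins divided. Traf1 had 245, 317 and 365 CPM in succinate cells with LPS, against 26.9, 19.5 and 13.8 CPM without, a 15.4-fold rise (3.94 ± 0.23, adjusted p = 1.27e-08). In control mice Traf1 had 470, 387 and 395 CPM with LPS, against 19, 27.4 and 26 CPM without, a 17.3-fold rise (4.11 ± 0.23, adjusted p = 7.56e-09). No LPS library overlapped an unstimulated one. Traf2, the RING ligase that Traf1 pairs with, rose 1.27-fold in succinate mice (66.5 ± 1.26 CPM with LPS and 52.4 ± 3.11 CPM without, adjusted p = 0.019). In control mice it rose 1.61-fold (78.4 ± 6.09 CPM with LPS and 48.8 ± 3.68 CPM without, adjusted p = 0.000108). Traf3, the restraint on the alternative route, rose 1.26-fold in succinate mice (161 ± 6.27 CPM with LPS and 128 ± 20 CPM without, adjusted p = 0.0333) and 1.36-fold in control mice (173 ± 5.05 CPM with and 128 ± 4.27 CPM without, adjusted p = 0.00715). In succinate mice the Traf2 call was lost in 4 of 23 settings and the Traf3 call in 6. Leaving out replicate 3 of the unstimulated succinate group put Traf2 at 0.30 (adjusted p = 0.0625) and Traf3 at 0.23 (adjusted p = 0.124). Leaving out replicate 2 of the succinate LPS group put them at 0.33 (adjusted p = 0.068) and 0.31 (adjusted p = 0.105). Traf3 was also lost without replicate 1 of the unstimulated succinate group (0.32, adjusted p = 0.0682) or of the succinate LPS group (0.32, adjusted p = 0.0809). Traf6, the ligase nearest the LPS receptor, did not pass in either kind of mouse. It had 88.1, 94.8 and 84.3 CPM in succinate cells with LPS, against 105, 111 and 88.1 CPM without (-0.18, 95% interval -0.41 to 0.04, adjusted p = 0.212). In control mice it had 94.5, 93.7 and 99.4 CPM with LPS, against 90.8, 102 and 96.9 CPM without (-0.01, interval -0.24 to 0.21, adjusted p = 0.952).

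Both cIAP ligases rose. Birc3 had 238, 298 and 316 CPM in succinate cells with LPS, against 153, 123 and 129 CPM without (2.10-fold, 1.07 ± 0.13, adjusted p = 1.14e-05). In control mice Birc3 had 370, 325 and 348 CPM with LPS, against 143, 164 and 165 CPM without (2.21-fold, 1.14 ± 0.13, adjusted p = 5.71e-06). Birc2 rose 1.51-fold in both, to 46 ± 0.644 CPM in succinate cells with LPS against 30.4 ± 3.43 CPM without (adjusted p = 0.00222), and to 46.3 ± 7.01 CPM in control cells with LPS against 30.7 ± 2.03 CPM without (adjusted p = 0.00231). Their relative Xiap did not pass (-0.10 ± 0.09 in succinate mice, adjusted p = 0.461, and 0.01 ± 0.09 in control mice, adjusted p = 0.927).

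**Figure D2:**
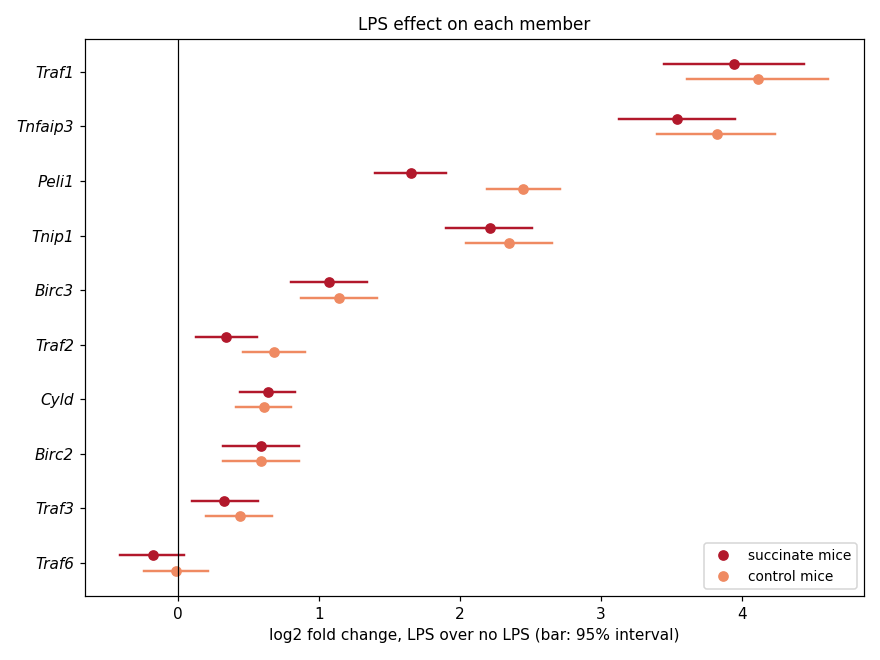
Log2 fold change of each member with LPS over no LPS, in succinate mice and in control mice, with 95% intervals. Traf1 and Tnfaip3 lie near 4, Peli1 and Tnip1 near 2, and both Traf6 intervals cross 0.

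The rest of the pathway was read from a list of other genes. Of 46 other genes of NF-kB ubiquitin signalling, all tested, 8 rose and 2 fell with LPS in succinate mice (median log2 fold change 0.10), and 13 rose and 2 fell in control mice (median 0.15). Over all genes 14.1% were higher and 16.2% lower in succinate mice, and 15.3% higher and 14.8% lower in control mice. Of 5 A20 partners and relatives, 2 rose in both kinds of mice. The A20-binding protein Tnip3 rose by 3.80 ± 0.30 in succinate mice (adjusted p = 2.48e-07) and 3.73 ± 0.30 in control mice (adjusted p = 2.69e-07). Rnf11, a subunit of the A20 complex, rose by 0.62 ± 0.14 in succinate mice (adjusted p = 0.00403) and 0.82 ± 0.14 in control mice (adjusted p = 0.000434). Among 5 ubiquitylated substrates, Nfkbia, the inhibitor of NF-kB, rose by 2.31 ± 0.17 in succinate mice (adjusted p = 1.04e-07) and 2.39 ± 0.17 in control mice (adjusted p = 6.6e-08). The kinase Ripk2 rose by 1.45 and 1.75 in succinate and control mice, while Ripk1 was at -0.49 and -0.37, a called fall in both. Among 7 ubiquitin readers and kinases, Tab1 fell in both (-0.44 ± 0.15 in succinate mice, -0.47 ± 0.15 in control mice), and in control mice Ikbkg (NEMO) rose by 0.85 ± 0.18 and Ikbkb by 0.39 ± 0.11. In succinate mice Ikbkg was at 0.41 (adjusted p = 0.106) and Ikbkb at 0.24 (adjusted p = 0.122). Among 5 TRAF relatives the TRAF-binding Tank rose by 0.70 in both, Tifa by 0.57 in succinate mice and Traf5 by 1.22 in control mice. Of 5 genes for further deubiquitinases and their adaptor, Otud7b rose by 0.44 in succinate mice and 0.39 in control mice. In control mice Rnf31 of the linear ubiquitin assembly complex rose by 0.46, and 3 of 6 E2 enzymes (Ube2n, Ube2d2a and Ube2d3) rose by 0.35 to 0.42. Calls made in one kind of mouse alone are not shown to differ between them, since the interaction called none of the 46 in edgeR (2 at an unadjusted p below 0.05). In control mice edgeR called none of 5 subunits of the SCF ligase that marks Nfkbia for destruction (1 at an unadjusted p below 0.05). It called none of 3 IAP relatives and antagonists (0 at that level). Shares of all genes at that unadjusted level were not counted.

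Scaled for exonic length, as TPM (length-scaled transcript abundance), the members changed places with LPS. In control cells with LPS, Tnip1 and Tnfaip3 led at 600 ± 93 and 579 ± 11.8 TPM, above 98.5% and 98.4% of tested genes, and Cyld was lowest at 26 ± 1.64 TPM. In unstimulated control cells Tnip1 was the highest member at 131 ± 21 TPM and Traf1 the lowest at 9.32 ± 1.86 TPM. The ratio of Traf1 to Traf2 levels in TPM was 2.17 to 3.18 in succinate cells with LPS and 0.163 to 0.283 without. In control cells this ratio was 2.70 to 3.48 with LPS and 0.245 to 0.306 without. Traf1 was thus below its partner in every unstimulated library and above it in every LPS library. The ratio of Birc3 to Birc2 in TPM was 4.67 to 6.37 in succinate cells with LPS and 3.52 to 4.45 without, and 6.23 to 7.63 in control cells with LPS and 4.59 to 4.80 without. Birc3 was the more abundant of the 2 transcripts in all 12 libraries.

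**Figure D3:**
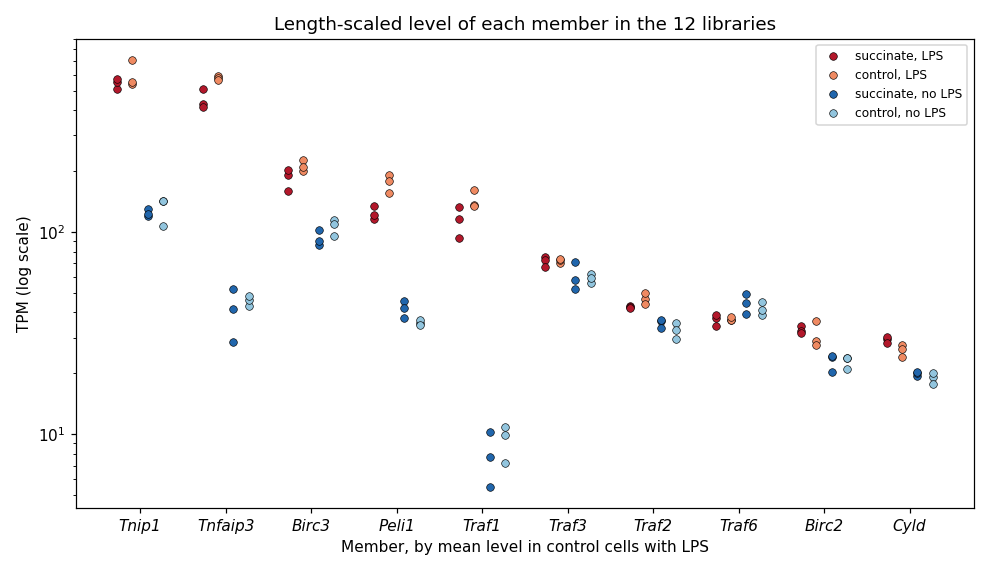
Length-scaled level of each member in TPM (log axis) in the 12 libraries, ordered by the mean in control cells with LPS. Traf1 crosses from below Traf2 without LPS to above it with LPS, while Traf6 libraries of all groups overlap.

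The next comparison asked how succinate given to the animals bore on these genes in LPS-treated monocytes. None of the 9 tested members was called by edgeR, DESeq2 or limma-voom. Over all 14324 genes, edgeR called 9 (0.0628%), DESeq2 337 and limma-voom 34. At an unadjusted p below 0.05, edgeR gave 3 of 9: Tnfaip3, Traf2 and Birc3. DESeq2 and limma-voom each gave 4 of 9 at that level. The share of all genes below that unadjusted level was not counted, so no excess is read from these counts. Tnfaip3 was at 922, 1140 and 927 CPM in succinate cells with LPS and 1400, 1350 and 1360 CPM in control cells with LPS (0.727-fold, log2 -0.46 ± 0.17, interval -0.83 to -0.09, adjusted p = 0.305). Traf1 averaged 309 ± 60.5 CPM in succinate cells and 417 ± 45.5 CPM in control cells (0.741-fold, interval 0.548 to 1, adjusted p = 0.428). Birc3 averaged 284 ± 40.6 and 348 ± 22.5 CPM in succinate and control cells (0.817-fold, interval 0.679 to 0.982, adjusted p = 0.377), and Traf2 66.5 ± 1.26 and 78.4 ± 6.09 CPM (0.848-fold, interval 0.73 to 0.986, adjusted p = 0.377).

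In 5 of the 9, Tnfaip3, Traf1, Traf2, Traf3 and Birc3, every succinate library lay below every control library in CPM. Over all genes 10.2% were lower with no overlap. None of the 9 was higher with no overlap, where all genes gave 6.95%. Counting genes without overlap was chosen after seeing the data, and the 9 share libraries. For Traf3 the gap was small, 154 to 166 CPM against 169 to 178 CPM. In TPM, succinate and control libraries overlapped for Traf3 (67.4 to 74.9 against 70 to 73.3) and Birc3 (160 to 203 against 201 to 226). They did not overlap in TPM for Tnfaip3, Traf1 and Traf2. Scaled by library size alone, 2 of the 5 still did not overlap (Tnfaip3 and Traf2), against 4.74% of all genes. With it the median gene stood at a log2 fold change of 0.107, against -0.014 with trimmed means, and changes here are relative to trimmed means. In the single-class libraries, and equally without replicate 3 of control cells with LPS, the same 5 genes did not overlap, where the share of all genes lower with no overlap was 18.2% and 18.7%. Tnip1 (-0.24 ± 0.14, adjusted p = 0.532), Traf6 (-0.11 ± 0.11, adjusted p = 0.764), Traf3 (-0.10 ± 0.11, adjusted p = 0.792), Birc2 (-0.01 ± 0.13, adjusted p = 0.984) and Cyld (0.07 ± 0.09, adjusted p = 0.815) did not pass. Of the 46 other pathway genes edgeR called none in this comparison (7 at an unadjusted p below 0.05), with a median log2 fold change of -0.04. Again the share of all genes at that unadjusted level was not counted. The mitochondrially encoded share of counts was 1.22% to 1.26% in succinate cells with LPS and 0.984% to 1.07% in control cells with LPS. The ribosomal protein share was 3.86% to 4.05% in succinate cells and 3.18% to 3.28% in control cells, and the part of either in these values was not tested. The summed level of the 10 classical monocyte markers was 8900 to 10600 CPM in succinate cells with LPS and 11100 to 12100 CPM in control cells with LPS, with no overlap. Among them Csf1r averaged 306 CPM in succinate cells and 420 CPM in control cells, Cd14 2190 CPM in succinate cells and 3000 CPM in control cells, and Ly6c2 1280 CPM in succinate cells and 1230 CPM in control cells. The sum of 9 T and NK cell markers was 32.3 to 44 CPM in succinate cells and 19.2 to 31.6 CPM in control cells, also with no overlap. Nkg7 alone carried most of this sum, at 36.5 CPM in succinate cells and 25.4 CPM in control cells. Of the 9 markers, 7 averaged under 1 CPM in succinate cells and 8 in control cells. The part of these marker levels in the members' values was not tested.

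Without LPS, none of the 9 tested members was called in succinate against control mice by edgeR, DESeq2 or limma-voom. Over all 14324 genes, edgeR and limma-voom called 0 at the adjusted level and DESeq2 called 1. At an unadjusted p below 0.05, edgeR gave none of the 9. The share of all genes at that unadjusted level was not counted. The estimates ran from -0.27 ± 0.22 for Traf1 to 0.10 ± 0.10 for Traf2. Cyld had no overlap, at 72.3, 72.2 and 72.6 CPM in succinate cells and 71.3, 72.1 and 66.8 CPM in control cells, a difference of 0.05 ± 0.09 (adjusted p = 0.975), against 3.65% of all genes higher with no overlap. The 95% interval was widest for Traf1, at -0.73 to 0.20 on the log2 scale, and narrowest for Cyld, at -0.15 to 0.24.

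Peli1, the member chosen on this contrast, is described without a test. With LPS it was 33.8% lower in succinate cells, at 249 ± 23.1 CPM, against 376 ± 36.8 CPM in control cells (log2 -0.60). Without LPS it was 15.6% higher in succinate cells, at 79.3 ± 9.71 CPM, against 68.6 ± 0.659 CPM in control cells (log2 0.21). The groups did not overlap in either state, which is part of the pattern Peli1 was chosen for. Over all genes 10.2% were lower with no overlap with LPS, and 3.65% higher without LPS. The share of genes that met both conditions was not counted. The lowest unstimulated succinate library (69.8 CPM) lay just above the highest unstimulated control library (69.2 CPM). In TPM the LPS levels were 124 ± 8.84 in succinate cells and 176 ± 18.1 in control cells.

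**Figure D4:**
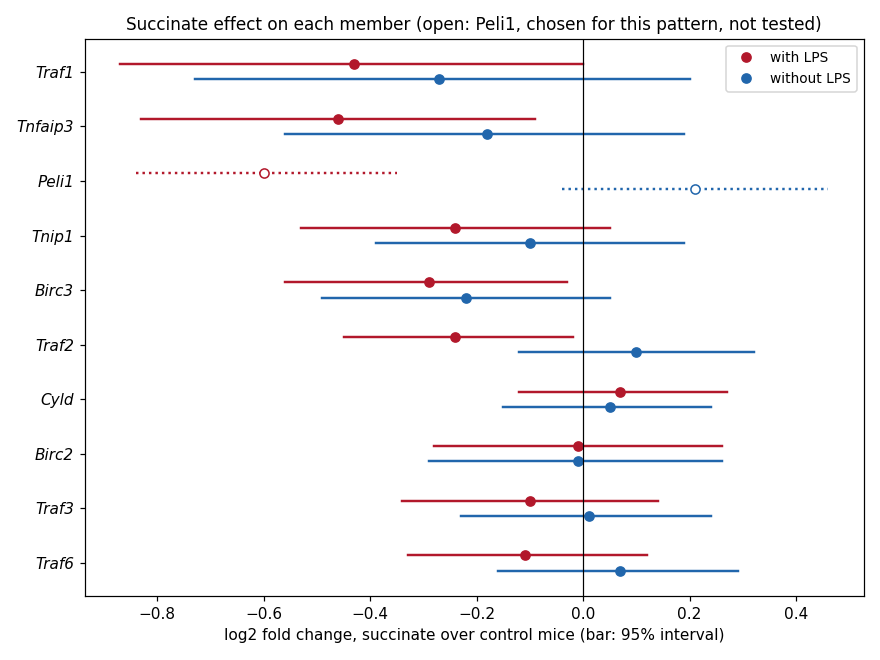
Log2 fold change of each member in succinate over control mice, with LPS and without LPS, with 95% intervals. Peli1, chosen for this pattern and not tested, has open points at -0.60 and 0.21. Its dotted intervals are no test. None of the other members was called in either state.

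The difference between the LPS responses of succinate and control mice was tested as an interaction. None of the 9 members other than Peli1 was called by edgeR, DESeq2 or limma-voom. Over all 14324 genes, edgeR and limma-voom called 0 and DESeq2 called 3. At an unadjusted p below 0.05, edgeR gave 1 of 9: Traf2, whose rise was smaller in succinate mice by a log2 difference of -0.34 ± 0.14 (interval -0.65 to -0.03, adjusted p = 1). The share of all genes at that unadjusted level was not counted. Tnfaip3 was at -0.28 ± 0.25 and Birc2 at 0 ± 0.18. Peli1 had the largest estimate of the 10, -0.80, which is part of the pattern it was chosen for.

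Across the 12 libraries, the genes most like Tnfaip3 in log2 CPM were Acod1, the itaconate-producing enzyme, Edn1, which encodes endothelin 1, and Nfkbia, each with Pearson r = 0.997 among 8452 named genes with at least 10 CPM in their highest group. The genes most like Peli1 were Dtx2, a Deltex-family ubiquitin ligase (r = 0.997), the histone methyltransferase Kmt5a (0.994) and the annexin Anxa7 (0.993). Dtx2 averaged 164 CPM in succinate cells with LPS, 264 CPM in control cells with LPS, 45 CPM in unstimulated succinate cells and 39.1 CPM in unstimulated control cells. These correlations are carried largely by the step between LPS and unstimulated libraries, which all these genes share, and are given as a description.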

How the data were processed

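RNA was measured in 12 libraries of sorted, cultured mouse monocytes. The deposited files hold raw counts of reads for each gene. The submitters' processing notes name Trim Galore and mm10, and the labels name Trizol-extracted total RNA. Which aligner, counter, annotation and strand setting the authors used is not stated in these sources. No other annotated gene shares exonic bases with a member in GENCODE M21 (GRCm38), which gave exonic lengths for 99.9% of identifiers. Promoters are RefSeq's (GRCm38.p6).

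From the counts, edgeR 4.0.16 (R 4.3.3) with filterByExpr, trimmed-mean (TMM) scaling and a quasi-likelihood model of 4 groups over 12 libraries gave fold changes, SE and 95% intervals, with Benjamini-Hochberg adjustment over 14324 genes and calls below 0.05. Intervals rest on the spread between libraries. CPM values are TMM-scaled, and TPM uses union exonic length. DESeq2 1.42.0 and limma-voom (limma 3.58.1), other filters and scalings, a replicate block, the library class and leaving out each library were alternatives.

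The members, the other pathway genes and the tests were chosen with earlier results of these data known. All 10 members are named. From each other pathway list up to 3 called genes were named by smallest p, and for Tnfaip3 and Peli1 the 3 most correlated named genes. A planned search of the proteins for RING patterns was not run, because protein sequences were not used here. Same-numbered libraries of different groups had correlations of deviations from their group means between -0.129 and 0.377, over 0.1 in 7 of 18 pairs. Differently numbered libraries had -0.325 to 0.29, and their values over 0.1 were 0.103, 0.141, 0.172, 0.282 and 0.29. These values do not settle whether the numbers pair libraries. The main model did not pair them, and the replicate block was an alternative.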

Additional observations from a re-analysis of the deposited data

Results flagged for a closer look

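Peli1 was marked because its succinate difference pointed in opposite directions in the 2 culture states, with no overlap between groups in either: lower in all 3 succinate libraries with LPS (226 to 272 CPM, against 339 to 413 CPM in control cells) and higher in all 3 without LPS (69.8 to 89.2 CPM, against 67.9 to 69.2 CPM in control cells). Over all genes 10.2% were lower with no overlap with LPS, and 3.65% higher without LPS. The share of genes that met both conditions was not counted. The difference between the 2 succinate effects on Peli1 was -0.80 on the log2 scale. It was not tested, since Peli1 was chosen for this pattern.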

How the results depend on the processing

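The count of members called with LPS in succinate mice (9) was 8 with no filter or only the groups compared. It was 7 to 9 with a library left out. The 7 came without replicate 3 of the unstimulated succinate group or replicate 2 of the succinate LPS group. Over all genes, calls in either direction were 4331 of 14324 in the main fit. They were 4487 of 28563 with no filter and 3507 of 13603 with only the groups compared. With a library left out they were 3374 to 4387, with 3926 and 3374 in the fits that gave 7. The larger library class alone, with 1 unstimulated succinate library, is left out of these counts. It put Traf2 at 0.30 and Traf3 at 0.38, and neither kept its call. In control mice 9 members were called in every alternative with more than 1 library a group. There 3347 to 4756 genes were called. Over all genes, succinate against control with LPS had 9 calls in the edgeR fit, 337 with DESeq2, 190 with the library class as a covariate and 0 with library size alone. With no filter, 1 member was called there, Tnfaip3 (-0.44, adjusted p = 0.045, in a range of 0.045 to 0.76 over its alternatives). In that unfiltered fit 694 of 28563 genes were called. The count of members lower in succinate mice with no overlap, chosen after seeing the data, was 5 with LPS and 2 with library size alone, and 5 to 6 with a library left out, where all genes gave 10.2%, 4.74% and 9.93% to 20.8%. Without LPS it was 0 (all genes 4.27%), and 0 to 2 with a library left out (all genes 4.27% to 16.5%), with 2 on leaving out replicate 1 of the succinate (9.52%) or control (9.50%) unstimulated group. With the replicate block the number of members called was 9 with LPS in both kinds of mice and 0 in the succinate comparisons. The block changed no call of a member. Over all genes it gave 4864 calls with LPS in succinate mice and 4756 in control mice. For succinate against control it gave 77 calls with LPS, against 9 without the block, and 0 in unstimulated cells. In that unstimulated comparison Traf3 was at 0.00, against 0.01. Leaving out replicate 3 of the unstimulated succinate group moved Tnfaip3 in that comparison to 0.02, against -0.18. LPS in succinate mice was no longer called for Birc2 in the larger library class alone (0.51), where fewer libraries were used.

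The signs that turned belong to values that were not called. Traf6 with LPS in control mice was 0.02 with the stricter filter, 0.00 with class as covariate, 0.07 in the larger class and -0.05 to 0.05 with a library left out. For succinate without LPS, the larger class, with 1 library a group, gave Tnfaip3 0.27, Tnip1 0.17, Traf1 0.50, Birc2 0.20 and Birc3 0.09. Traf3 was -0.02 with no filter and -0.01 with RLE scaling, DESeq2 or limma-voom, and Birc2 was 0.02 with library size alone. With a library left out, Tnfaip3 ran from -0.43 to 0.02, Traf3 from -0.12 to 0.11, Traf6 from 0.00 to 0.16 and Birc2 from -0.07 to 0.08. For succinate with LPS, library size alone gave Traf3 0.02, Traf6 0.02 and Birc2 0.11, a shift of all genes. Birc2 was 0.01 with no filter, 0.02 with only the groups compared and -0.08 to 0.11 with a library left out. For the interaction, Birc2 was -0.01 with the stricter filter, -0.02 with class as covariate, -0.28 in the larger class and -0.09 to 0.13 with a library left out, and Birc3 was 0.02 with library size alone. With a library left out the interaction ran from -0.22 to 0.01 for Tnip1, -0.02 to 0.06 for Cyld, -0.38 to 0.10 for Traf1, -0.21 to 0.02 for Traf3 and -0.16 to 0.04 for Birc3. The cause of these turns was not tested.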

Other observations

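Among the unstimulated cells of succinate mice, replicate 3 was the lowest library of its group for 8 of the 10 members, while it was the lowest for 33.3% of all tested genes. Among the unstimulated cells of control mice, replicate 1 was the lowest for 8 of 10, against 36.8% of all genes, and among succinate cells with LPS replicate 1 was the lowest for 7 of 10, against 40.9%. Tnfaip3 and Traf1 had a correlation of 0.77 between their deviations from group means over the 12 libraries, Traf3 and Traf6 of 0.90, and Traf1 and Birc3 of 0.83, while Cyld and Birc2 had -0.64. These values share libraries and depth and are a description.

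Among the relatives of the members, Traf5 had the largest estimate toward lower values in succinate cells with LPS, -1.07 ± 0.25, and did not pass (adjusted p = 0.0847). It averaged 5.39 ± 0.707 CPM in succinate cells and 11.3 ± 4.05 CPM in control cells with LPS. Traf4 was at 1.11 ± 0.33 in the same comparison (adjusted p = 0.187), on 43 to 72 counts per succinate library and 21 to 26 per control library. Both were picked after their values were seen.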
